A study of Homo sapiens with 4 samples.

Results

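The proteasome genes of 2 human prostate cancer (PCa) cell lines were described before and after knockdown of DDX52, a DEAD-box RNA helicase. The genes were taken by their symbols: every protein-coding gene named PSMA to PSMG followed by a digit, plus POMP, ADRM1 and SEM1. This took 53 of the 60671 genes listed for each library. A pair of them match the symbol pattern without being proteasome subunits, namely PSMC3IP, a cofactor of meiotic recombination, and PSME3IP1, which binds the activator PSME3. The genes were chosen with their lower level after knockdown in these libraries already known, so the knockdown values below are a description and carry no test.

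RNA was sequenced from 22RV1 and PC3 cells, both established lines from prostate carcinoma. Each line carried, by pLKO.1 lentivirus and with puromycin selection, either a non-targeting shRNA (shCON) or a single shRNA against DDX52 (shDDX52). The 4 conditions were sequenced once each, so no value has a replicate check, no p-value is given, and differences between conditions cannot be set against culture-to-culture spread. The authors deposited TPM, in which each gene's reads are divided by its length and scaled to a common library total. The unit keeps no record of how deeply a library was sequenced, so the read support of a single value cannot be given. Pairs of values are given for shCON first and shDDX52 second. The shRNA left DDX52 at 24.6% of its control in 22RV1 (4.88 and 1.20 TPM) and at 22.5% in PC3 (9.20 and 2.07 TPM). Of the markers of luminal prostate cells, KLK2 was at 32.6 and 23.1 TPM and KLK3 at 6.84 and 4.51 TPM in 22RV1 and both were listed at 0 in PC3, whereas SLC45A3 was higher in PC3 (14.1 against 5.39 TPM in the controls). PC3 shDDX52 stood apart in that 3.13% of its TPM were on ribosomal RNA genes and 91.0% on protein-coding genes, against 0.0923% and 96.0% in PC3 shCON. In 22RV1 the larger ribosomal RNA share, 1.21%, was in the control library, and mitochondrially encoded genes took a larger share after knockdown in both lines (9.81% and 13.0% in 22RV1, 8.10% and 10.3% in PC3).

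The proteasome is the protease that degrades most short-lived and damaged proteins in the cytosol and nucleus. Its 20S core is a barrel of stacked alpha and beta rings, in which PSMB5, PSMB6 and PSMB7 carry the protease sites. The 19S regulator caps the core: its base unfolds the substrate with a ring of ATPases, and its lid removes ubiquitin. In cells exposed to interferon, PSMB8, PSMB9 and PSMB10 replace the constitutive protease subunits and form the immunoproteasome, which favours peptides for presentation on MHC class I. Dedicated chaperones assemble the core and the cap. When the proteasome is inhibited, the transcription factor NFE2L1 (also called NRF1) drives the subunit genes together through antioxidant response elements in their promoters.

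The promoters shown here are those of the 7 genes that were lower after knockdown by at least 0.32 on the log2 scale in both lines (the share of all genes that did so was not computed), and of PSMB8 and PSMB9, the immunoproteasome genes that differed most between the control lines. They are RefSeq sequences on GRCh38.p14, each running from 250 bases before to 50 bases after the first listed start of the gene, 5′ to 3′ on the strand of the gene. Capitals mark TGACNNNGC (antioxidant response element core), CCAAT (bound by NF-Y), CACGTG (E-box), CCGGAAG (ETS core), GAAANNGAA (IRF element) and the palindrome TTCNNNGAA, searched on both strands.
PSMA2 (chr7:42932125-42932424, minus strand): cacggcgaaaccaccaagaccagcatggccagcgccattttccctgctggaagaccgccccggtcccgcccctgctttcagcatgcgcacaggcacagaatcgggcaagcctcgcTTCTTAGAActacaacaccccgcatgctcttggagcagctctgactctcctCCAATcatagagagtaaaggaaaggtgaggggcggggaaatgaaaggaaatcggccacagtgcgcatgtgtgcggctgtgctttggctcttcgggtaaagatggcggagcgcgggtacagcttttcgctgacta
PSMA3 (chr14:58244593-58244892, plus strand): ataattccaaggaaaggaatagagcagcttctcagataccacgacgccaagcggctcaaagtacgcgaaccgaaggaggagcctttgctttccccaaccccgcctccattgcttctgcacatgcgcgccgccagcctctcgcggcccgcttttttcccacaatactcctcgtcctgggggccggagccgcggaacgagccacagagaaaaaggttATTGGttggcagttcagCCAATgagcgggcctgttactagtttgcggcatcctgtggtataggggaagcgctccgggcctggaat
PSMA4 (chr15:78540155-78540454, plus strand): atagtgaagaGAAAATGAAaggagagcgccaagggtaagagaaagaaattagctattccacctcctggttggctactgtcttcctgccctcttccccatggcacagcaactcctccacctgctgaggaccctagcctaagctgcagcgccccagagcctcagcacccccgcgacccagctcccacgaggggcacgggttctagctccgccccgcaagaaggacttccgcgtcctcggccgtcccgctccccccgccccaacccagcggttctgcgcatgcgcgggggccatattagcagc
PSMA5 (chr1:109426399-109426698, minus strand): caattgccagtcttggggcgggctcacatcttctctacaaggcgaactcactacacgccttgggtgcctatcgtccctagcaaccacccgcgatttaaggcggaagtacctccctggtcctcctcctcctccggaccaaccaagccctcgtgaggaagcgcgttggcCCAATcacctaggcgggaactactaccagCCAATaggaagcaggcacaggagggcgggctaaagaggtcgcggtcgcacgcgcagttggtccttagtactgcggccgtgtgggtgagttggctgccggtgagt
PSMD14 (chr2:161308175-161308474, plus strand): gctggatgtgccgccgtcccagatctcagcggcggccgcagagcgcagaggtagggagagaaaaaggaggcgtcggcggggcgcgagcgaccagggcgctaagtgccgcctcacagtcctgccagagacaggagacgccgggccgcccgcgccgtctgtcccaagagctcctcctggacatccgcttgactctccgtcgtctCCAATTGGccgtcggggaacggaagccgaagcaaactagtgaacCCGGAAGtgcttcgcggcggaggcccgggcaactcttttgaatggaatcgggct
PSMG1 (chr21:39183402-39183701, minus strand): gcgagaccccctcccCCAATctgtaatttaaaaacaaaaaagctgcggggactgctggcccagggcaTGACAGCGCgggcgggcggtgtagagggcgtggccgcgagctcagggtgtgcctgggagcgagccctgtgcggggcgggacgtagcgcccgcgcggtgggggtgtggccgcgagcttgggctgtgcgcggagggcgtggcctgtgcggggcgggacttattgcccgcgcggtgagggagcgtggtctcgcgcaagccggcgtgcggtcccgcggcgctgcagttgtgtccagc
POMP (chr13:28658880-28659179, plus strand): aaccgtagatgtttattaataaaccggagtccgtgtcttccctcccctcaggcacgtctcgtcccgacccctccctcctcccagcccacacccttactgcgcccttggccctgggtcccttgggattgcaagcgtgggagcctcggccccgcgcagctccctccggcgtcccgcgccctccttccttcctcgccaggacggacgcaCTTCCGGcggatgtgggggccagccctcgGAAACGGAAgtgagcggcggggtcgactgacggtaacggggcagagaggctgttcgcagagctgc
PSMB8 (chr6:32844630-32844929, minus strand): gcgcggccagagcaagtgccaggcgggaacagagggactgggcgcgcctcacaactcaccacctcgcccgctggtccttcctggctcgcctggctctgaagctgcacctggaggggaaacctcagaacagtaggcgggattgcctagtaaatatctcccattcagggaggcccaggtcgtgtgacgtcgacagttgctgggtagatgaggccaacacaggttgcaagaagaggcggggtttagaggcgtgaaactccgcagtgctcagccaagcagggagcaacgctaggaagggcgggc
PSMB9 (chr6:32853942-32854241, plus strand): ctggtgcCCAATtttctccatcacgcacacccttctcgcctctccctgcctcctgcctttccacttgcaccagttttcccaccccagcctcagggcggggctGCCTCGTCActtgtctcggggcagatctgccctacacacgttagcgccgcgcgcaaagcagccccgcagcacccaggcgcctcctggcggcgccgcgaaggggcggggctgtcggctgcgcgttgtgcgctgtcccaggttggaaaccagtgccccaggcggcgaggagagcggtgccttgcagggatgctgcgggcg

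No sequence of those 6 motifs was found in the PSMB8 window, and the 4 alpha genes shared no motif that all of them held. Of the 53 genes, 47 were matched to a promoter of this table. The antioxidant response element core was in 14 of these 47 promoters (29.8%), against 13.6% of all 27305 promoters and 14.3% of the 15843 of protein-coding genes, and the looser form TGANNNNGC, which includes the core, was in 28 (59.6%, against 42.1% and 42.6%). The ETS core was in 15 (31.9%, against 10.7% and 14.2%) and the CCAAT box in 22 (46.8%, against 35.7% and 36.4%). E-boxes were in 4 promoters (8.51%, against 7.43% and 8.88%), IRF elements in 8 (17.0%, against 8.29% and 7.06%) and the palindrome in 5 (10.6%, against 7.88% and 6.97%). The share of the antioxidant response element core among the 47 is not that of the core and cap subunits alone. Of the 28 such subunits with a promoter in the table, 6 held it (21.4%). The other promoters that held it were those of PSMB9, activators and assembly chaperones. The looser form was in 16 of the 28 (57.1%). Of the 6 alpha genes with a promoter in the table, 0 held the antioxidant response element core and 0 held the ETS core. The looser form TGANNNNGC was in 3 of these 6, and so few promoters cannot be set against the shares above. These are matches of letters in a fixed window and not binding sites.

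After DDX52 knockdown most proteasome genes were slightly lower in both lines, including every gene of the 20S core, whereas the immunoproteasome subunit PSMB9, the activator PSME1 and the inhibitor PSMF1 were higher in both. For each gene the log2 ratio is log2((TPM shDDX52 + 1) / (TPM shCON + 1)), which understates the difference of genes with low values, and it was used for genes that reached 1 TPM in one of the libraries compared. In 22RV1, 46 of 51 such proteasome genes were below their control, beside 58.8% of all 14438 genes, and PSMD8 was counted among them at 384.17 and 384.11 TPM. In PC3 it was 40 of 52, beside 53.5% of 14262 genes. The median log2 ratio was −0.24 in 22RV1 (−0.076 over all genes) and −0.20 in PC3 (−0.036 over all genes). A gene was counted as lower or higher when its log2 ratio was at least 0.32 in size, at which one library holds 25% more than the other. By this limit 13 of 51 genes were lower in 22RV1, beside 22.6% of all genes, and 11 of 52 in PC3, beside 22.5%. Since the genes were chosen with this contrast known, the counts are given beside the background and nothing is read from them. On the other side, 1 gene in 22RV1 (PSMB9) and 3 in PC3 (PSMB9, PSMD2 and PSME3) were higher, beside 12.7% and 19.7% of all genes. PSMD6 (−0.33) and POMP (−0.35) were the genes just inside the limit in 22RV1 and PC3, and PSMA1 (−0.32) and PSMC5 (−0.32) the genes just outside it. In RNA from a whole culture, a lower level in every cell and a lower level in a fraction of the cells cannot be told apart.

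**Figure D1:**
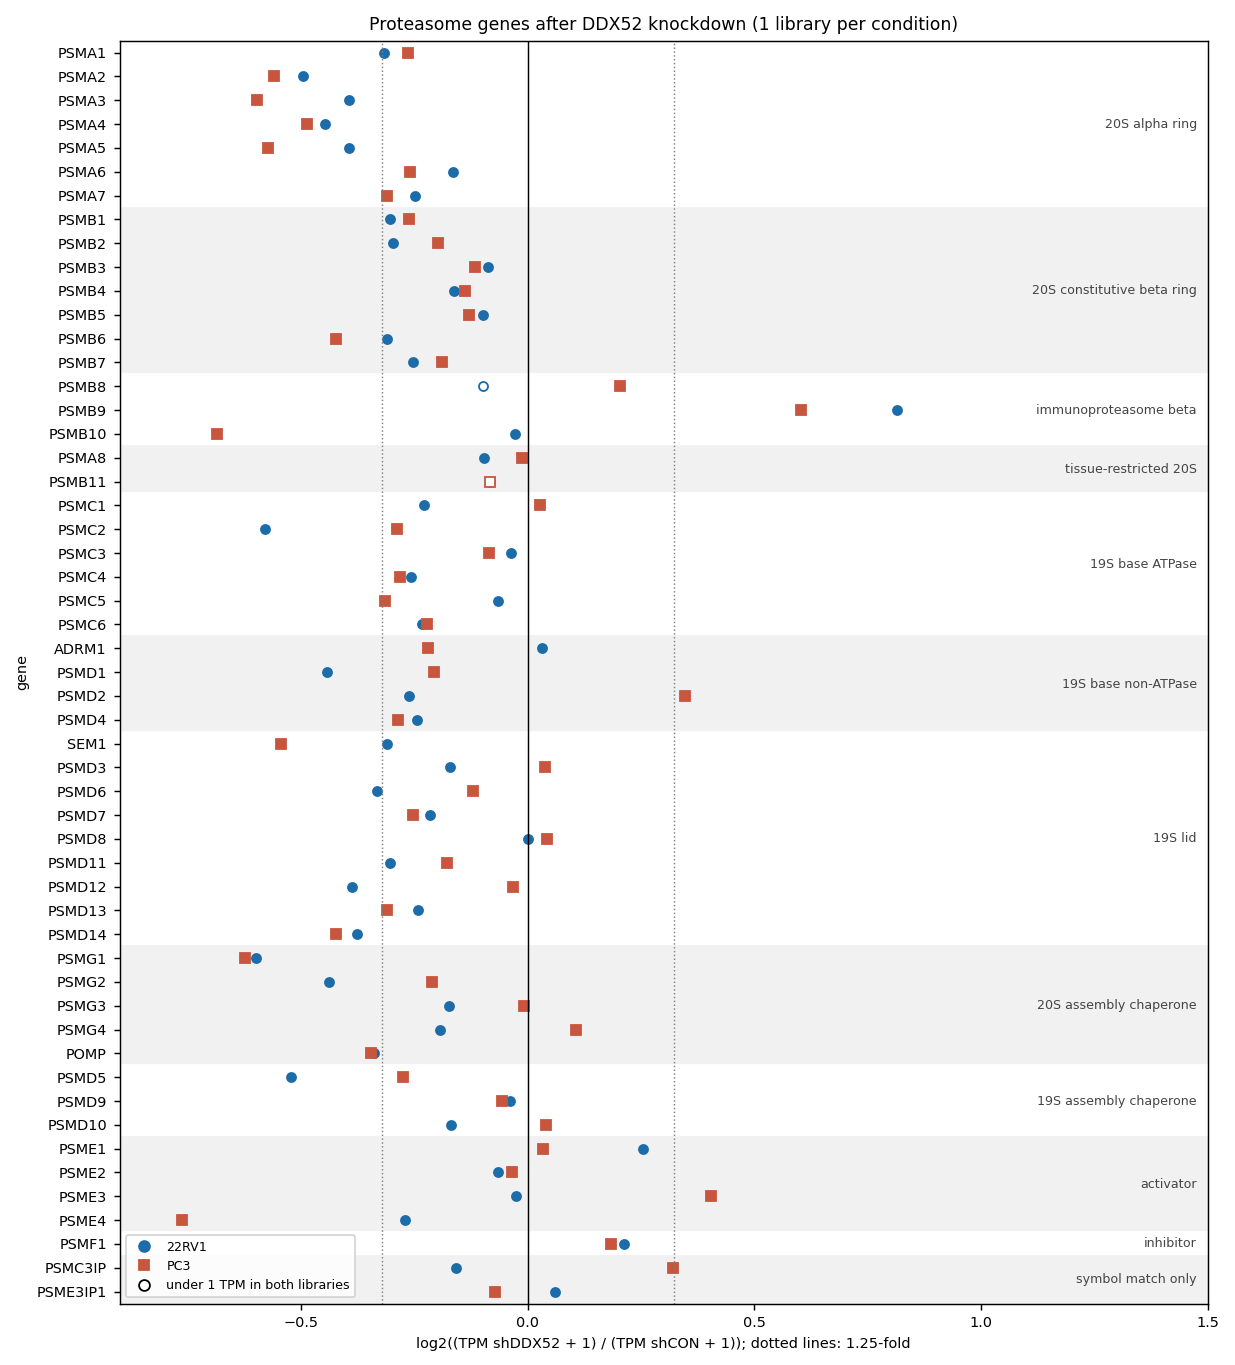
Log2 ratio of shDDX52 to shCON (x axis, TPM with a pseudocount of 1) for each of the 53 genes, grouped by their place in the proteasome, with circles for 22RV1 and squares for PC3, 1 library per condition. All 14 genes of the 20S core lie left of 0 in both lines (PSMB3 in PC3 lies right of it, at 0.013, when TPM is rescaled to nuclear protein-coding genes), whereas PSMB9 and PSMF1 lie right of 0 in both.

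TPM is a share of the library, so its scaling bears on these values. Rescaling TPM to nuclear protein-coding genes moved the median of all PC3 genes from −0.036 to 0.087 and that of the proteasome genes from −0.20 to −0.076, so that 31 of 52 were below 0 in place of 40. The 9 genes that changed sign there were PSMA8, PSMB3, PSMC3, PSMD6, PSMD9, PSMD12, PSME2, PSME3IP1 and PSMG3, which lay between 0.0060 and 0.12 after rescaling. In 22RV1 the same rescaling changed the sign of PSMD8 alone (0.017). With mitochondrially encoded and the 20 highest genes left out, 41 of 51 were below 0 in 22RV1 in place of 46, and 38 of 52 in PC3. The 5 genes that changed sign in 22RV1 were PSMB10, PSMC3, PSMD8, PSMD9 and PSME3, which lay between 0.017 and 0.057 there. Relative to the median of all genes, 36 of 52 were lower in PC3 and 39 of 51 in 22RV1, as deposited and under either rescaling. The distance of the proteasome median from the median of all genes was −0.17 in both lines as deposited. After rescaling to nuclear protein-coding genes it was −0.17 (22RV1) and −0.16 (PC3). Rescaling multiplies all values kept in a library by the same factor, so these counts and distances could hardly change. They are therefore no check on the scaling. Among genes with at least 10 TPM the distance was −0.19 in 22RV1 and −0.14 in PC3. As deposited, 38 genes were lower in both lines, 3 were higher in both and 10 went opposite ways, beside 32.5%, 18.5% and 48.8% of the 12175 genes tested in both, and nothing is read from these counts. The lines have separate controls, and the log2 ratios of the 33 subunits of the core and the cap correlated between them with a Spearman rho of 0.51 across genes, which share libraries and are not independent replicates.

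The alpha ring, which forms the gate of the core, had the largest difference of the structural classes. All 7 genes were lower in both lines, with a median log2 ratio of −0.39 in 22RV1 and −0.49 in PC3, and 4 of the 7 (PSMA2, PSMA3, PSMA4 and PSMA5) passed the limit in both. Of all genes, 22.6% were lower by this limit in 22RV1 and 22.5% in PC3. The share of all genes past it in both lines was not computed, so nothing is read from this count. PSMA2 had 101 and 71.0 TPM in 22RV1 and 130.4 and 88.1 TPM in PC3, and its log2 ratios were −0.49 and −0.56. PSMA3 had 73.4 and 55.6 TPM in 22RV1 and 507 and 335 TPM in PC3 (log2 ratios −0.39 and −0.60). These were the lowest ratios of the ring in 22RV1 and in PC3, respectively. PSMA4 had 219 and 160.4 TPM in 22RV1 and 214 and 153 TPM in PC3, and PSMA5 83.7 and 63.5 TPM in 22RV1 and 104 and 69.5 TPM in PC3. PSMA6, the nearest to its control, had 185 and 165 TPM in 22RV1 and 283 and 236 TPM in PC3 (log2 ratios −0.16 and −0.26). PSMA7, the most abundant alpha transcript, had 429.8 and 362 TPM in 22RV1 and 756 and 609.5 TPM in PC3 (log2 ratios −0.25 and −0.31). The 4 genes past the limit were thus at 66.1% to 75.8% of their control, and PSMA1, PSMA6 and PSMA7 at 80.2% to 89.2%. The summed TPM of the ring was 1202 and 966 in 22RV1 (−19.7%) and 2153 and 1623 in PC3 (−24.6%).

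**Figure D2:**
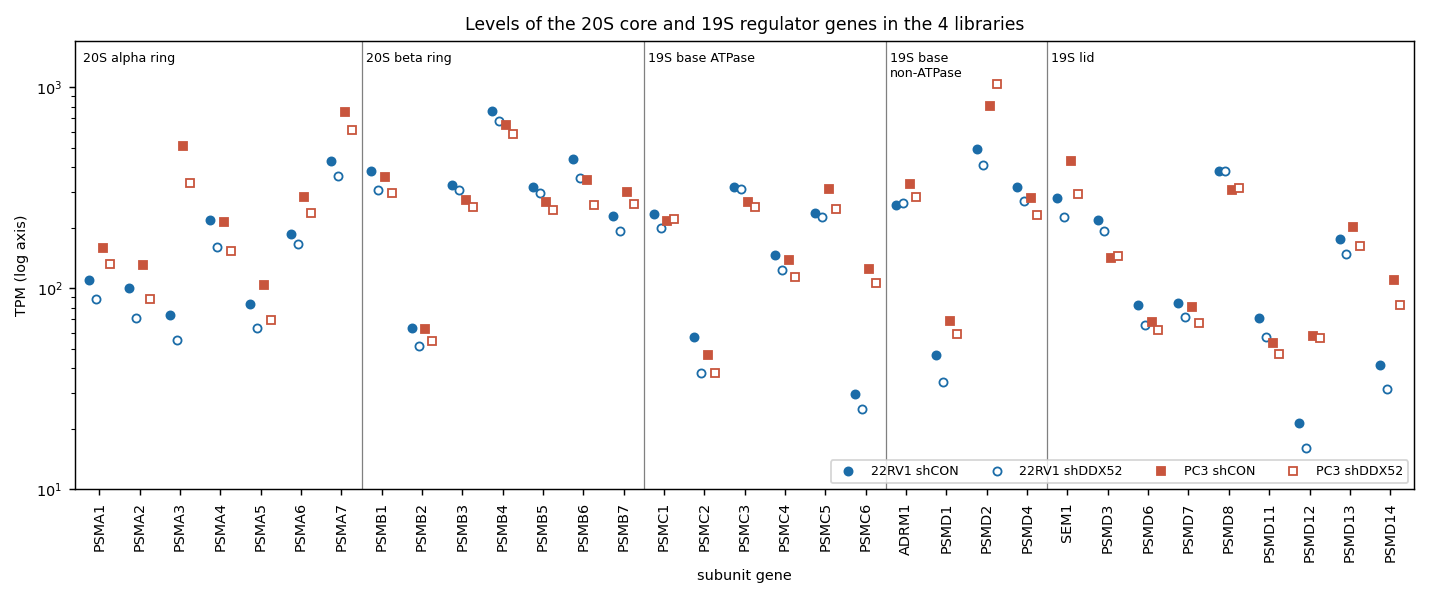
TPM (y axis, log scale) of the 14 core and 19 cap genes in the 4 libraries, circles for 22RV1 and squares for PC3, filled for shCON and open for shDDX52, 1 library per point. Levels range from 16.1 TPM (PSMD12 in 22RV1 shDDX52) to 1030.3 TPM (PSMD2 in PC3 shDDX52), and PSMA3 and PSMC6 show a wide gap between the lines.

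The beta ring of constitutive subunits showed a smaller difference in the same direction. Its 7 genes were lower in both lines (median log2 ratio −0.25 in 22RV1 and −0.19 in PC3), with PSMB3 at 0.013 in PC3 when TPM was rescaled to nuclear protein-coding genes, and only PSMB6 in PC3 passed the limit. PSMB6, which carries the caspase-like site, had 438 and 353 TPM in 22RV1 and 347 and 258 TPM in PC3 (log2 ratios −0.31 and −0.42). PSMB7, with the trypsin-like site, had 229.9 and 193 TPM in 22RV1 and 299.5 and 262 TPM in PC3 (log2 ratios −0.25 and −0.19). PSMB5, the chymotrypsin-like subunit and the main target of bortezomib, had 318 and 298 TPM in 22RV1 and 268 and 245 TPM in PC3 (log2 ratios −0.098 and −0.13). The protease subunits therefore differed among themselves, with PSMB6 at 74.5% to 80.6% of its control and PSMB5 at 91.4% to 93.4%. Among the non-catalytic subunits, PSMB4 was the most abundant at 759.9 and 679 TPM in 22RV1 and 646 and 587 TPM in PC3 (log2 ratios −0.16 and −0.14). PSMB3 was the closest to its control at 326 and 307 TPM in 22RV1 and 274 and 253 TPM in PC3 (log2 ratios −0.087 and −0.12). The ring's summed TPM was 2517 and 2189 in 22RV1 (−13.0%) and 2255 and 1959 in PC3 (−13.1%). Over both rings the 20S core had a median of −0.30 on the log2 scale in 22RV1 and −0.26 in PC3, and each of its 14 genes was also below the median of all genes in both lines.

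The immunoproteasome subunits had no common direction, and PSMB8 and PSMB9 differed more between the lines than between shCON and shDDX52. PSMB9 was higher after knockdown in both lines, whereas PSMB10 was lower in both, as the core was, though by only −0.028 in 22RV1. PSMB8, which replaces PSMB5, was listed at 0.07 TPM in 22RV1 shCON and at 0 in 22RV1 shDDX52, and it was at 80.7 and 93.1 TPM in PC3. PSMB9, which replaces PSMB6, had 1.37 and 3.17 TPM in 22RV1 and 16.6 and 25.8 TPM in PC3, and it was higher after knockdown in both lines (log2 ratios 0.82 and 0.60). The 22RV1 values are low, and the PSMB9 log2 ratio there was 0.36 with a pseudocount of 5 TPM and 1.15 with a pseudocount of 0.1 TPM. PSMB10, which replaces PSMB7, was at a similar level in both control lines, with 57.4 and 56.3 TPM in 22RV1 and 51.5 and 31.6 TPM in PC3 (log2 ratios −0.028 and −0.69). Its PC3 ratio was the lowest of the 6 catalytic genes, at 61.4% of control, whereas it was at 98.0% in 22RV1. Opposite differences of the 3 genes left the summed TPM of the class nearly level, at 58.85 and 59.45 in 22RV1 and 148.85 and 150.45 in PC3.

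As a share of each pair, PSMB9 made up 0.312% and 0.889% of PSMB6 plus PSMB9 in 22RV1, and 4.57% and 9.06% in PC3. PSMB8 made up 0.0220% and 0% of PSMB5 plus PSMB8 in 22RV1, and 23.1% and 27.5% in PC3. PSMB10 made up 19.98% and 22.6% of PSMB7 plus PSMB10 in 22RV1, and 14.7% and 10.8% in PC3. PC3 thus had transcripts of all 3 immunoproteasome subunits, whereas 22RV1 had PSMB10 with little PSMB9 and next to no PSMB8. PSMB8 and PSMB9 both lie in the MHC class II region. Taken over all their annotated transcripts, their exons overlap by 139 bases on opposite strands. The sources used here do not state whether reads were counted by strand.

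**Figure D3:**
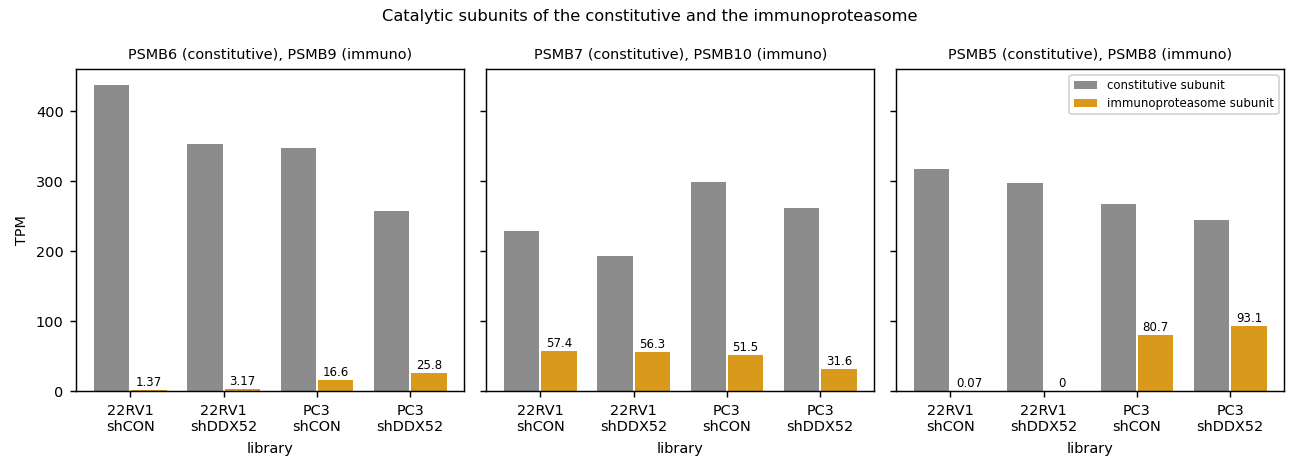
TPM of the 3 constitutive catalytic subunits (grey bars) and of the immunoproteasome subunit that replaces each (orange bars, value printed above) in the 4 libraries, 1 library per bar. PSMB8 is at 80.7 and 93.1 TPM in PC3 and at 0.07 and 0 TPM in 22RV1, and the constitutive bar is lower with shDDX52 than with shCON in all 3 pairs and both lines.

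PSMA8 and PSMB11, the core subunits restricted to testis and thymic cortex, were low. PSMA8 had 9.56 and 8.87 TPM in 22RV1 and 6.06 and 6 TPM in PC3 (log2 ratios −0.097 and −0.012). PSMB11 was 0.06 TPM in each control library and 0 in each shDDX52 library, and it was left out of the counts.

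The medians of the 19S regulator were slightly less low than those of the 20S core (−0.30 in 22RV1 and −0.26 in PC3), with more exceptions. In PC3 the median of the constitutive beta ring alone was −0.19. Of the 19 genes of the 19S regulator, 18 were below their control in 22RV1 (median log2 ratio −0.24) and 15 in PC3 (−0.22). Their summed TPM was 3503 and 3097 in 22RV1 (−11.6%) and 4043 and 3817 in PC3 (−5.59%), where the log2 ratio of the sums was −0.083 as deposited and 0.047 after rescaling to nuclear protein-coding genes. The PC3 sums include PSMD2, which was higher after knockdown there, at 809.9 and 1030.3 TPM.

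In the ring of 6 ATPases at the base, the median log2 ratio was −0.23 in 22RV1 and −0.25 in PC3. PSMC2 had the lowest mean ratio, with 57.01 and 37.8 TPM in 22RV1 and 46.8 and 38.1 TPM in PC3 (log2 ratios −0.58 and −0.29). PSMC3, the most abundant of the ATPases by its mean over the 4 libraries, had 318 and 309.9 TPM in 22RV1 and 267 and 252 TPM in PC3 (log2 ratios −0.037 and −0.084), and in PC3 it was at 0.045 after rescaling to nuclear protein-coding genes. The 22RV1 ratio of PSMC2 was the lowest of the 19 genes in that line, and PSMC3 was at 97.4% and 94.3% of its control in 22RV1 and PC3. PSMC1 had 235 and 199.96 TPM in 22RV1 and 217 and 221 TPM in PC3 (log2 ratios −0.23 and 0.026). Its processed pseudogene PSMC1P5, of 177 bases and with 98.4% of its 50-base stretches also in PSMC1, was at 48.9, 0.48, 0 and 11.2 TPM in 22RV1 shCON, 22RV1 shDDX52, PC3 shCON and PC3 shDDX52. In each line the library with more PSMC1P5 was also the one with the larger ribosomal RNA share, and the part of either in the PSMC1 values was not tested. With PSMC1P5 added to PSMC1, the log2 ratio was −0.50 in 22RV1 and 0.097 in PC3. TPM is per length, and the longest coding PSMC1 transcript has 4448 bases. The reads of the 177-base pseudogene thus weigh more in this sum than they would within PSMC1.

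The other base subunits include the ubiquitin receptors PSMD4 and ADRM1 and the large scaffolds PSMD1 and PSMD2. PSMD1 had 46.8 and 34.2 TPM in 22RV1 and 68.8 and 59.4 TPM in PC3 (log2 ratios −0.44 and −0.21). PSMD2 had 494 and 412 TPM in 22RV1 and 809.9 and 1030.3 TPM in PC3 (log2 ratios −0.26 and 0.35), so it was lower after knockdown in 22RV1 and higher in PC3. It was the most abundant 19S transcript in all 4 libraries, and the only one of these 4 genes that was higher in PC3, where their sum was 1491 and 1604 TPM (7.59% higher). ADRM1 had 259 and 265 TPM in 22RV1 and 329.8 and 283 TPM in PC3 (log2 ratios 0.031 and −0.22), and PSMD4 320.4 and 270.2 TPM in 22RV1 and 282 and 231 TPM in PC3 (log2 ratios −0.24 and −0.29).

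Of the 9 lid genes, all were below their control in 22RV1 (median −0.30), PSMD8 by the smallest margin (log2 ratio −0.00022), and 7 were below it in PC3 (−0.18). After rescaling to nuclear protein-coding genes the PC3 median of the lid was −0.052, and PSMD6 and PSMD12 changed sign there. SEM1, a small acidic subunit that also binds BRCA2, had the lowest mean ratio, with 282 and 227 TPM in 22RV1 and 429 and 294 TPM in PC3 (log2 ratios −0.31 and −0.54). PSMD14, the deubiquitinase of the lid, had 41.3 and 31.6 TPM in 22RV1 and 110.5 and 82.2 TPM in PC3 (log2 ratios −0.38 and −0.42) and passed the limit in both lines. PSMD8, the most abundant lid transcript by its mean over the 4 libraries, had the highest mean log2 ratio of the lid, with 384 and 384 TPM in 22RV1 and 306 and 316 TPM in PC3 (log2 ratios −0.00022 and 0.042). The other 6 lid genes lay between −0.39 (PSMD12) and −0.17 (PSMD3) in 22RV1 and between −0.31 (PSMD13) and 0.039 (PSMD3) in PC3.

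**Figure D4:**
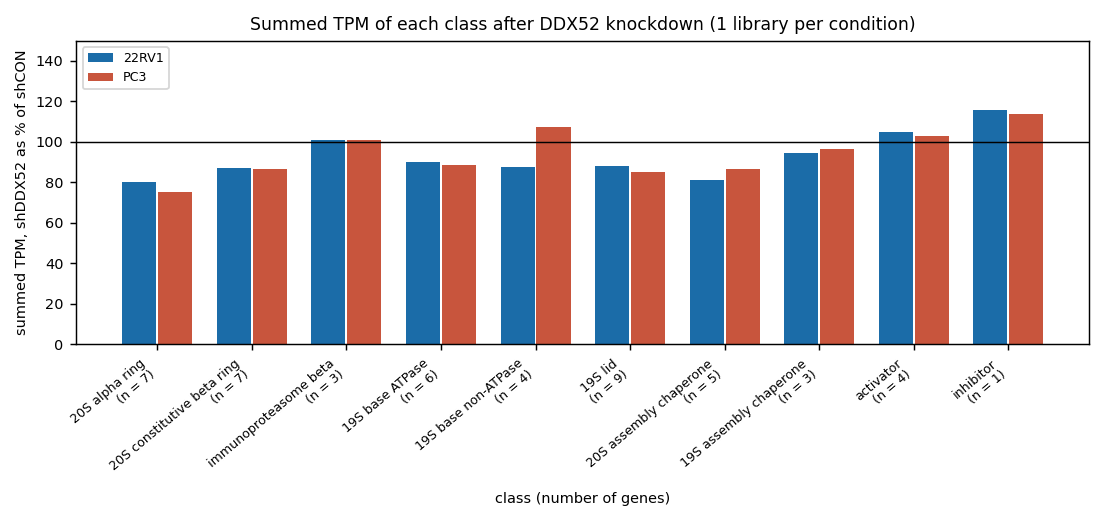
Summed TPM of each class in the shDDX52 library as a percentage of the shCON library of the same line (y axis, blue bars 22RV1, red bars PC3, with the number of genes under each class and 1 library per condition). The alpha ring is the lowest structural class, at 80.3% and 75.4% of control, while the base non-ATPase genes are at 87.6% in 22RV1 and 108% in PC3.

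The assembly chaperones of the core included some of the lowest ratios of the proteasome genes. The chaperones PSMG1 and PSMG2 pair to guide the alpha ring, PSMG3 and PSMG4 form another pair, and POMP guides the beta ring. PSMG1 had 56.7 and 37.1 TPM in 22RV1 and 75.2 and 48.4 TPM in PC3 (log2 ratios −0.60 and −0.62), the lowest ratio of the proteasome genes in 22RV1 and past 1.5-fold in both lines. Its partner PSMG2 had 42.2 and 30.9 TPM in 22RV1 and 108 and 93.4 TPM in PC3 (log2 ratios −0.44 and −0.21). POMP had 64.4 and 50.7 TPM in 22RV1 and 67.8 and 53.1 TPM in PC3 (log2 ratios −0.34 and −0.35). These 3 were thus lower in both lines, and past the limit with the exception of PSMG2 in PC3. The other pair was nearer to its control, with PSMG3 at 148 and 131 TPM in 22RV1 and 89.4 and 88.8 TPM in PC3 (log2 ratios −0.17 and −0.009), which was 0.12 in PC3 after rescaling to nuclear protein-coding genes. PSMG4 had 59.2 and 51.6 TPM in 22RV1 and 56.4 and 60.7 TPM in PC3 (log2 ratios −0.19 and 0.11) and went opposite ways in the lines. Over the 5 genes the median log2 ratio was −0.34 in 22RV1 and −0.21 in PC3.

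Among the chaperones of the 19S base, PSMD5 had 11.3 and 7.56 TPM in 22RV1 and 13.2 and 10.7 TPM in PC3 (log2 ratios −0.52 and −0.27), past the limit in 22RV1 but not in PC3. PSMD9 had 178 and 173 TPM in 22RV1 and 115 and 111 TPM in PC3 (log2 ratios −0.039 and −0.057), and its PC3 value also changed sign with that rescaling. PSMD10, also known as gankyrin, had 27.4 and 24.3 TPM in 22RV1 and 42.7 and 43.9 TPM in PC3 (log2 ratios −0.17 and 0.04). The median of these 3 was −0.17 in 22RV1 and −0.057 in PC3, and in PC3 it was 0.071 after rescaling to nuclear protein-coding genes.

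The activators, which open the core without ubiquitin, had no common direction. Their median log2 ratio was −0.046 in 22RV1 and −0.00014 in PC3, and it was 0.011 in 22RV1 with the mitochondrial transcripts and the 20 highest genes left out and 0.13 in PC3 over nuclear protein-coding genes. PSME1 and PSME2 form the interferon-inducible PA28αβ cap, and PSME1 had 221 and 264 TPM in 22RV1 and 211 and 216 TPM in PC3 (log2 ratios 0.26 and 0.034). Its partner PSME2 had 213 and 204 TPM in 22RV1 and 209 and 204 TPM in PC3 (log2 ratios −0.065 and −0.034). PSME3, the nuclear PA28γ, had 142 and 139 TPM in 22RV1 and 75.9 and 101 TPM in PC3 (log2 ratios −0.026 and 0.40) and was past the limit in PC3 only, where it was higher. PSME4 (PA200), which takes part in histone degradation, had 5.91 and 4.73 TPM in 22RV1 and 20.9 and 11.9 TPM in PC3 (log2 ratios −0.27 and −0.76), the lowest ratio of the proteasome genes in PC3. PSMF1 (PI31), known as an inhibitor of the core in vitro, had 103 and 119.7 TPM in 22RV1 and 118 and 134 TPM in PC3 (log2 ratios 0.21 and 0.18), and it was higher in both lines. PSMF1, PSMB9 and PSME1 were the 3 genes above their control in both lines.

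PSMC3IP had 47.9 and 42.8 TPM in 22RV1 and 15.4 and 19.5 TPM in PC3 (log2 ratios −0.16 and 0.32), and PSME3IP1 64.7 and 67.5 TPM in 22RV1 and 48.2 and 45.8 TPM in PC3 (log2 ratios 0.059 and −0.072). Without these 2 genes, an alternative chosen after seeing the data, the median of the proteasome genes was −0.24 in 22RV1 and −0.21 in PC3.

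Although the core and cap hold their subunits in equal numbers, transcript levels per length were far from equal. Over the 14 core genes the highest TPM was 11.1 to 13.2 times the lowest in a library, with a coefficient of variation of 63.9% to 77.5%. PSMB2 was the lowest core gene in all 4 libraries, and PSMB4 in 22RV1 and PSMA7 in PC3 were the highest. Over the 19 cap genes the coefficient of variation was 73.9% and 77.2% in 22RV1 and 86.4% and 110% in PC3, and PSMD2 was the highest in each library. The lowest cap gene was PSMD12 in 22RV1 and PSMC2 in PC3. The order of the 33 genes hardly differed between shCON and shDDX52 (Spearman rho 0.99 in 22RV1 and 0.98 in PC3, across genes of 2 libraries), and it was less alike between the control lines (0.83).

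The largest differences in these genes were between the control arms of the lines. In PC3 shCON against 22RV1 shCON, 8 of 52 proteasome genes were at least 2-fold higher, beside 19.9% of 15727 genes, and 1 (PSMC3IP) was at least 2-fold lower, beside 21.3%. The median log2 difference was −0.018, against −0.067 over all genes, and it was 0.049 after centring on that median. PSMA3 stood out among the core genes, at 73.4 TPM in 22RV1 and 507 TPM in PC3, a ratio of 6.91, while the other 13 core genes had ratios from 0.792 (PSMB6) to 1.76 (PSMA7). The antisense gene named after it, PSMA3-AS1, was also higher in PC3 (7.27 and 29.6 TPM in the controls). PSMB9 had a ratio of 12.1 between the lines and PSMB8 was nearly absent from 22RV1. In the cap, PSMC6 (29.7 and 124 TPM), PSMD12 (21.4 and 58.0 TPM) and PSMD14 (41.3 and 110 TPM) had 4.19, 2.71 and 2.67 times the TPM in PC3. The chaperone PSMG2 (42.2 and 108 TPM) and the activator PSME4 (5.91 and 20.9 TPM) had 2.56 and 3.54 times. The alpha ring as a whole had 1.79 times the summed TPM in PC3, the beta ring 0.896 times, and all 53 genes 1.14 times. The lines were deposited in separate tables of the same unit, and cell line and table cannot be told apart.

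**Figure D5:**
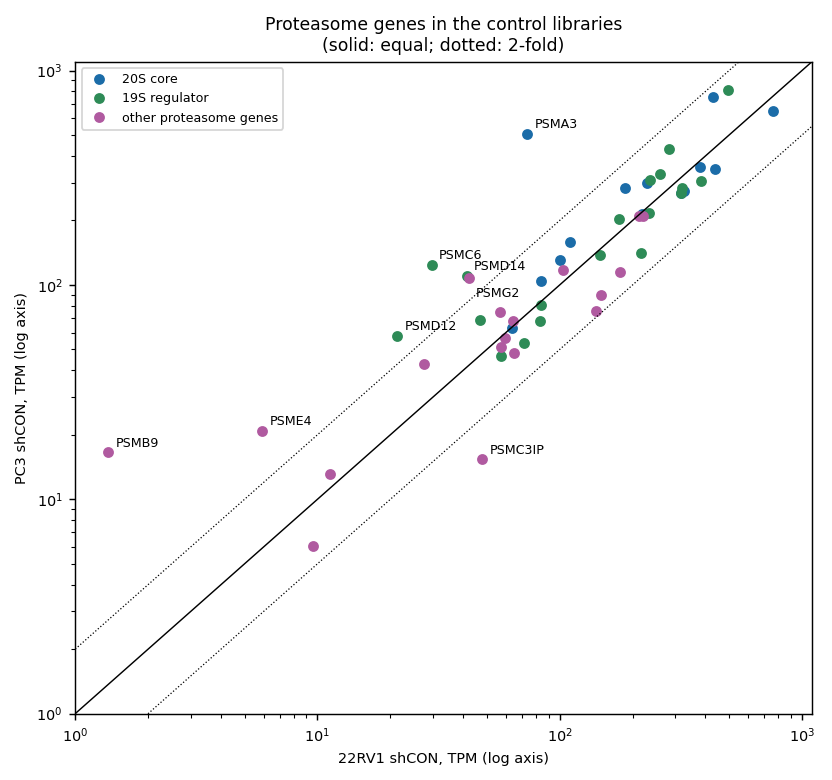
TPM of the proteasome genes in 22RV1 shCON (x axis, log scale) and PC3 shCON (y axis, log scale), coloured by 20S core, 19S regulator and other, with the line of equality (solid) and of 2-fold (dotted). PSMA3 lies at 73.4 and 507 TPM, far above the other core genes, and PSMB8 and PSMB11, under 1 TPM in 22RV1, are not drawn.

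A list of 36 regulators of ubiquitin and the proteasome was drawn up from the textbook pathway. In 22RV1, 9 of 34 with at least 1 TPM were lower and 1 was higher by the same limit (median log2 ratio −0.16), beside 22.6% and 12.7% of all genes. In PC3, 5 of 35 were lower and 4 higher (−0.030), beside 22.5% and 19.7%. NFE2L1, the activator of the subunit genes when the proteasome is inhibited, had 90.5 and 62.1 TPM in 22RV1 and 72.4 and 103 TPM in PC3 (log2 ratios −0.54 and 0.50), so it was lower after knockdown in 22RV1 and higher in PC3. MAFG, one of its small MAF partners, had 13.7 and 14.1 TPM in 22RV1 and 9.09 and 14.3 TPM in PC3 (log2 ratios 0.039 and 0.60). Any part of NFE2L1 or MAFG in the values of the subunit genes was not tested.

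Of the genes that encode ubiquitin, UBB and RPS27A were slightly below their controls in both lines as deposited, with UBB at 0.054 in PC3 after rescaling to nuclear protein-coding genes. UBB had 2107 and 1842 TPM in 22RV1 and 1073 and 1018 TPM in PC3 (log2 ratios −0.19 and −0.076). RPS27A, a fusion of ubiquitin with a ribosomal protein, had 1055 and 952 TPM in 22RV1 and 1679.8 and 1373 TPM in PC3 (log2 ratios −0.15 and −0.29). Neither gene passed the limit in either line. UBA6, a ubiquitin-activating enzyme, had 5.10 and 2.85 TPM in 22RV1 and 4.85 and 11.4 TPM in PC3 (log2 ratios −0.66 and 1.09) and went opposite ways. USP14, the deubiquitinase bound to the cap, had 47.2 and 38.5 TPM in 22RV1 and 69.2 and 64.3 TPM in PC3 (log2 ratios −0.29 and −0.10), and its PC3 value was 0.025 after rescaling to nuclear protein-coding genes. ECPAS, which binds both core and cap, had 18.4 and 16.2 TPM in 22RV1 and 18.4 and 11.3 TPM in PC3 (log2 ratios −0.18 and −0.65).

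Reads of similar genes could reach some of these values. By 50-base stretches of the GENCODE 29 transcripts, 32 of the 53 genes shared none with another gene and 10 shared 10% or more. The largest shares were PSMA6 (85.6%) and PSMA2 (51.0%), mostly with annotated read-through transcripts AL121594.1, at 2.91, 2.21, 5.50 and 6.05 TPM over the 4 libraries, and AC010132.3, at 7.53, 6.54, 8.45 and 6.12 TPM. Of 44 annotated pseudogenes of these genes, PSMC1P1 and PSMC1P5 reached 1 TPM. Exons of 22 of the 53 genes overlap a gene on the other strand, 19 of them by at least 100 bases, and without a stated strand setting the reads of such pairs cannot be told apart.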

How the data were processed

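RNA-seq covered 4 libraries, 22RV1 and PC3 cells with shCON or shDDX52. Per the labels, RNA was extracted with Trizol and libraries were made with an Illumina TruSeq kit. The submitters' processing notes name CASAVA, HISAT2 and the build hg19, with no versions, and the quantification program, annotation and strand setting are not given in the sources used here. The authors deposited TPM, without counts or depth, as 1 table per cell line. From these values, log2 ratios with a pseudocount of 1 TPM were computed for genes that reached 1 TPM in one of the libraries compared, with 0.32 (log2) as the limit for shRNA comparisons and 2-fold between lines. Gene symbols came from a table of gene names, and gene types, pseudogenes, shared 50-base stretches and strand overlaps from GENCODE 29 on GRCh38. Since the builds differ, no gene positions are given, and promoter positions are those of RefSeq. The IRF element and the palindrome TTCNNNGAA were added after the data had been seen.

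The members and lists were chosen with earlier results of these data known. Genes named with values were, in each class, those with the lowest and highest mean log2 ratio and the highest TPM, those past 1.5-fold in either line, those with opposite signs of at least 0.2, the catalytic pairs, PSMC3IP, PSMA8, PSMB11 and DDX52. From the list of regulators, genes past 1.5-fold in either line, NFE2L1, USP14 and the ubiquitin genes were named. Others were named after their values were seen, and a few genes within the rule are left out. The log2 ratio was run on simulated data with a much smaller pseudocount and returned the folds put in. That checked the code and not the pseudocount used here. Scripts ran in Python 3.11.15 with matplotlib 3.10.9, numpy 2.4.6, pandas 2.3.3 and scipy 1.17.1.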

Additional observations from a re-analysis of the deposited data

Results flagged for a closer look

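Some genes had log2 ratios of at least 0.1 in size with opposite signs in the lines, and with 1 library per condition none of these differences between lines was tested. Among proteasome genes, PSMD2 was at −0.26 in 22RV1 and 0.35 in PC3, PSMG4 at −0.19 and 0.11, and PSMC3IP at −0.16 and 0.32. Among the regulators, NFE2L1 was at −0.54 in 22RV1 and 0.50 in PC3, and UBA6 at −0.66 and 1.09. Of transcripts related to the members, the pseudogene PSMC1P5 was at −5.08 in 22RV1 and 3.604 in PC3, and PSMD14-DT, which starts beside PSMD14 on the other strand, at 0.27 and −0.13. PSMC1P5 lies outside the proteasome genes taken, and it was at 11.16 TPM in PC3 shDDX52 and listed at 0 in PC3 shCON. The ribosomal RNA share was also the larger one in PC3 shDDX52 (3.13% against 0.0923%) and in 22RV1 shCON (1.21% against 0.0872%), and its part in the PSMC1P5 values was not tested.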

How the results depend on the processing

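No paired analysis was possible because a condition was sequenced only once, and no replicate could be left out. With no spread between replicates, a log2 value was taken as moved when an alternative shifted it by 0.1 or more, and a count when it differed by more than 1.5 times. Of 781 alternative values for 118 results, 697 stayed within these limits, 80 moved and 4 changed sign from a reported value of at least 0.1 in size. Counted without that limit, 36 alternative values for 21 results had the other sign than the reported value, which in 32 was under 0.1 in size. In 22RV1, the median log2 ratio of the immunoproteasome genes (0.39) was 0.56 with a pseudocount of 0.1 TPM, 0.17 with 5 TPM, and −0.028 both without a filter and with a minimum of 10 TPM, since these settings change which of the 3 genes are counted. The 13 members lower in 22RV1 were 7 after centring on the median of all genes, 1 at 1.5-fold and 0 at 2-fold. The 1 higher member was 0 at a minimum of 10 TPM, 2 after centring and 0 at 2-fold. In PC3, the 11 lower members were 4 at 1.5-fold and 0 at 2-fold, and the 3 higher members 1 and 0. Rescaling PC3 to nuclear protein-coding genes, which moved the median of all genes from −0.036 to 0.087, gave medians of −0.076 (all members), −0.13 (20S core), −0.091 (19S regulator), 0.33 (immunoproteasome) and 0.13 (activators). It gave log2 ratios of summed TPM of −0.17, 0.047, 0.15 and 0.17 for the last 4 classes in this order, and 5 higher members. It also turned PSMB3 to 0.013, PSMC3 to 0.045, PSMG3 to 0.12, PSMD9 to 0.071, PSME3IP1 to 0.055, PSMA8 to 0.10, USP14 to 0.025 and UBB to 0.054. The depth behind each TPM value is unknown, so values near 1 TPM, such as PSMB9 in 22RV1, have an unknown counting error.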

Other observations

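Transcripts named after proteasome genes but outside the members were mostly near 0. The 44 annotated pseudogenes together had 65.07, 11.41, 17.13 and 28.81 TPM in 22RV1 shCON, 22RV1 shDDX52, PC3 shCON and PC3 shDDX52. PSMC1P1 was at 15.9, 10.7, 16.4 and 16.8 TPM in the same order. Of the antisense and divergent transcripts, PSMA3-AS1 was at 7.27, 7.30, 29.6 and 16.6 TPM, PSMG3-AS1 at 7.02, 5.10, 3.33 and 1.84 TPM, and PSMB8-AS1 at 0, 0, 0.86 and 1.45 TPM. The proteasome genes together made up 0.878% and 0.774% of TPM in 22RV1 shCON and shDDX52, and 0.997% and 0.894% in the corresponding PC3 libraries.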
